A study of Mus musculus with 20 samples.

Results

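The UDP-glucuronosyltransferases (Ugt) and cytosolic sulfotransferases (Sult) were taken from the deposited gene table by name alone: every protein-coding gene whose symbol starts with Ugt1, Ugt2 or Ugt3, or with Sult1 to Sult6, followed by a subfamily letter and a number. This gave 38 of the 38924 genes listed, 20 Ugt and 18 Sult genes, and no measured value entered the choice. By family there were 9 Ugt1, 9 Ugt2, 2 Ugt3, 6 Sult1 and 8 Sult2 genes, and 1 gene each of Sult3, Sult4, Sult5 and Sult6. Poly(A) RNA was sequenced from the livers of 20 male mice, 5 in each of 4 groups: wild type C57BL/6J mice on control diet (NDWT), TSP-1 knockout mice on control diet (NDKO), wild type mice on CDAHFD (HFWT) and TSP-1 knockout mice on CDAHFD (HFKO). CDAHFD is a high fat chow that lacks choline and supplies L-amino acids in place of protein, and it is used to bring on steatohepatitis with fibrosis. All mice were bought at 5 weeks of age, kept for 1 week and then fed for 12 weeks. The knockout removes Thbs1, the gene of thrombospondin-1 (TSP-1), from the whole animal rather than from the liver alone, and both strains came from a vendor, so the sources used here do not describe the groups as littermates. The liver piece is given as right medial lobe in the series description and as right lateral lobe in the paper.

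Glucuronidation and sulfation are the main conjugation reactions by which the liver makes bilirubin, bile acids, steroid and thyroid hormones and drugs soluble in water for export into bile or blood. Ugt enzymes sit in the membrane of the endoplasmic reticulum and transfer glucuronic acid from UDP-glucuronic acid, whereas Sult enzymes sit in the cytosol and transfer a sulfonate group from PAPS. The Ugt1a genes are alternative first exons spliced to a common set of last exons, and the Ugt2 genes lie side by side, most of them as separate genes. In the liver these enzymes belong chiefly to hepatocytes.

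Libraries held 15641545 to 23276322 fragments assigned to genes, and a count of 3 fragments, used here as the floor in 1 library, corresponds to 0.129 to 0.192 FPKM on a gene of 1 kb. These floors cover counting error only. Thbs1 was read first as the check of the labels. Control diet livers had 0.058 to 0.326 FPKM of it when labelled WT and 0.986 to 1.90 when labelled TSP-1 null, and CDAHFD livers 3.46 to 6.10 and 3.05 to 4.40. Its 5 NDKO values thus all exceeded its 5 NDWT values (log2FC 2.28, SE 0.24, FDR 1.02e-05 by limma), which goes against the labels, and on CDAHFD it did not differ detectably (log2FC −0.39, FDR 0.408). The exons that carried these fragments cannot be seen in gene values, so WT and TSP-1 null below always mean the libraries labelled so. The 7 hepatocyte markers found in the table summed to 34600 to 41660 FPKM in NDWT and 39160 to 47210 in NDKO, against 26260 to 37780 in HFWT and 34350 to 45880 in HFKO. Kidney tubule markers summed to at most 0.047 FPKM in any library.

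Of the 38 genes, 12 lay within 702 kb of chromosome 5 (GRCm38, 86889767 to 87591611): Ugt2b34, Ugt2b1, Ugt2b35, Ugt2b36, Ugt2b5, Ugt2b37, Ugt2a3, Ugt2b38, Ugt2a1, Sult1b1, Sult1d1 and Sult1e1, in this order and, except for Ugt2b35, on the minus strand. The 9 Ugt1a genes shared 1 locus on chromosome 1, and 9 Sult genes lay on chromosome 7. Among the Ugt2b genes, some pairs with closely similar sequence upstream of the start differed in what the diet did to them, so the 250 bases before the RefSeq start (GRCm38.p6, read 5′ to 3′ on the gene's strand) are shown for 4 of them. Capitals mark AGGTCA, the hexamer that many nuclear receptors bind.
Ugt2b5: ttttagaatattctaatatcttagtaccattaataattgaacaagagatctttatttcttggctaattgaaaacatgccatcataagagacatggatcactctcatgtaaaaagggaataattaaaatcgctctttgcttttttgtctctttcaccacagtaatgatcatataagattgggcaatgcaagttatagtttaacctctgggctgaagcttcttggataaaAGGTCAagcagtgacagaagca
Ugt2b36: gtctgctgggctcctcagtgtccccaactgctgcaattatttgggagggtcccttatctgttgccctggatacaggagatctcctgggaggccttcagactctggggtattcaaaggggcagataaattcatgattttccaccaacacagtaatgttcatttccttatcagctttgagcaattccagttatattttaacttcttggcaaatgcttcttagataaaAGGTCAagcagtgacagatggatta
Ugt2b37: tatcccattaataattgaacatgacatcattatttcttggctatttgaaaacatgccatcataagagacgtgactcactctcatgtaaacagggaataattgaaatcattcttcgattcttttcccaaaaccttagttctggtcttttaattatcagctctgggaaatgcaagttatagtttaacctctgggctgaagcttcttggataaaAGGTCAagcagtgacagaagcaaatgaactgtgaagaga
Ugt2b38: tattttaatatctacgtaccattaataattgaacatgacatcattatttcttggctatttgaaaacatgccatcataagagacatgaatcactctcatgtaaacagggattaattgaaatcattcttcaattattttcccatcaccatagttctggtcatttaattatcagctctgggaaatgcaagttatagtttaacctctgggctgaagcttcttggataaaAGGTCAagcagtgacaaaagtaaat
These windows are chr5:87140341-87140590, chr5:87092556-87092805, chr5:87254789-87255038 and chr5:87424204-87424453, all on the minus strand. Over the aligned bases the Ugt2b37 and Ugt2b38 windows were 94.9% identical (224 of 236), Ugt2b38 and Ugt2b5 were 88.3% identical, and Ugt2b37 and Ugt2b5 were 87.6% identical, against 69.6% to 71.4% for Ugt2b36 with each of them. AGGTCA began 22 bases before the start of Ugt2b5, 25 before those of Ugt2b36 and Ugt2b38, and 39 before that of Ugt2b37.

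The same window is shown for Ugt1a7c (chr1:88094751-88095000, plus strand) and Sult1e1 (chr5:87591612-87591861, minus strand), the genes with the highest diet log2FC in both genotypes among those tested, on log2(FPKM + 0.1). In Sult1e1 this hexamer lies on the other strand, as TGACCT.
Ugt1a7c: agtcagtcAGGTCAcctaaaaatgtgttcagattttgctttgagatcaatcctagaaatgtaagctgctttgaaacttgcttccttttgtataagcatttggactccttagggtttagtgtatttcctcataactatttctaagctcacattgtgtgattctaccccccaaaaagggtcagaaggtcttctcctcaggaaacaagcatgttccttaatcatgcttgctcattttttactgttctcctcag
Sult1e1: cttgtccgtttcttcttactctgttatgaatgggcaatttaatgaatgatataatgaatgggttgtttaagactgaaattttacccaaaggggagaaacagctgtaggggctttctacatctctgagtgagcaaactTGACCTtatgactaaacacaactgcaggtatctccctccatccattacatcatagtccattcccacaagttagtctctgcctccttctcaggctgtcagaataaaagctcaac
In windows of 300 bases (250 before and 50 after the start), 32 of the 38 genes had a RefSeq promoter, 34 promoters in all. AGGTCA was found on either strand in 9 of the 34 (26.5%) and in 16.3% of all 32851 mouse promoters in the reference table. GCGTG, the core bound by the aryl hydrocarbon receptor, was found in 6 (17.6%, against 32.4%), TTCNNNGAA, bound by STAT factors, in 2 (5.88%, against 8.3%), and TGACNNNGC, the antioxidant response element, in 0 (against 12.4%). The opening letters of TGACNNNGC also start TGACCT, so these motifs can overlap. A match only describes the letters in this window, and so does its absence.

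Ugt RNA was far more abundant than Sult RNA, and a few genes carried most of each. Summed over the 20 Ugt genes, the level was 1051 ± 81.2 FPKM in NDWT (mean ± SD, n = 5 here and below), 904.5 ± 70.3 in NDKO, 795.1 ± 46.6 in HFWT and 723.1 ± 105 in HFKO. The 18 Sult genes summed to 161 ± 17.4, 251 ± 44.5, 237 ± 30.9 and 236 ± 26.7 FPKM. FPKM are fragments relative to gene length and to all fragments assigned in the library, so these sums compare shares of each library's RNA. Ugt2b5 made up the largest share of the Ugt sum in every group, at 28.2%, 27.0%, 27.8% and 26.8% in NDWT, NDKO, HFWT and HFKO. Ugt2b36 made up 15.2%, 15.4%, 20.3% and 20.2%. Sult1a1, the phenol sulfotransferase, made up 72.4%, 79.0%, 72.0% and 76.3% of the Sult sum, and Sult1d1, which sulfates catecholamines and related amines, 17.7%, 15.4%, 18.0% and 17.0%.

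The make-up of the Ugt sum moved with the diet. Ugt2b1 held 16.3% and 16% of it on control diet and 7.0% and 7.42% on CDAHFD, in WT and TSP-1 null livers. Ugt2b35 held 3.72% and 3.51% on control diet and 9.15% and 8.59% on CDAHFD. Within a library Ugt2b1 was at 441% ± 43.0 of Ugt2b35 in NDWT and 455% ± 21.8 in NDKO, but at 76.6% ± 9.43 in HFWT and 86.5% ± 3.56 in HFKO. The 10 control diet values (403% to 508%) and the 10 CDAHFD values (69.4% to 92.5%) did not overlap, and a ratio within a library does not depend on how libraries are scaled. It shows unequal change and not which of the pair moved.

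**Figure D1:**
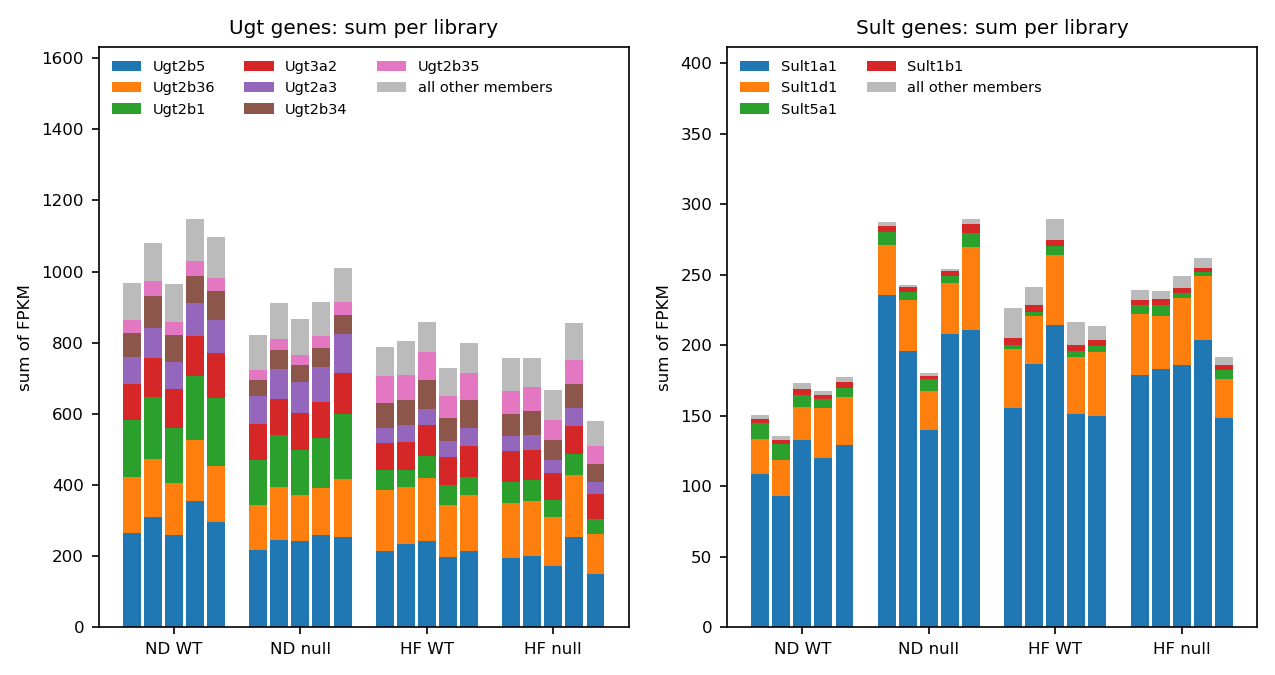
Stacked bars of summed FPKM for each of the 20 livers, with the Ugt genes on the left and the Sult genes on the right, by group (ND control diet, HF CDAHFD, null TSP-1 null); each color is 1 gene and gray is the rest of the family. The Ugt2b1 segment is thinner and the Ugt2b35 segment thicker in the 10 CDAHFD livers, and Sult1a1 makes up most of every Sult bar.

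Tests were run for 24 of the 38 genes, those that exceeded 0.5 FPKM in 5 or more of the 20 livers: 16 Ugt and 8 Sult genes. A change was called with limma on log2(FPKM + 0.1) where the Benjamini-Hochberg FDR over all 14524 genes tested, two-sided, was under 0.05, with an absolute log2FC above 0.58. Fold changes are on this scale and understate the change of low genes. On CDAHFD the median gene of the whole table was higher in WT by a log2FC of 0.53 and in TSP-1 null livers by 0.50, and median of ratios scaling between libraries lowers the diet log2FC by 0.54 and 0.51, so diet effects are also given after that scaling ("scaled").

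CDAHFD raised some of the conjugating enzymes and lowered others, in a table in which most changes went up. In WT livers 12 of the 24 genes tested were called, 4 higher (16.7%) and 8 lower (33.3%), where 48.8% of all genes tested were called, 44.1% higher and 4.62% lower. In TSP-1 null livers 10 were called, 5 higher (20.8%) and 5 lower (20.8%), against 45.9% of all genes, 41.9% higher and 4% lower. After median of ratios scaling the counts were 3 higher and 13 lower in WT (all genes 22.7% and 15.4%), and 3 higher and 12 lower in TSP-1 null livers (22.2% and 13.6%). The median log2FC of the 24 genes was −0.11 in WT and −0.04 in TSP-1 null livers. The CDAHFD and control livers did not overlap for 5 genes that were higher and 9 that were lower in WT (all genes 50.5% and 5.7%), and for 4 and 6 in TSP-1 null livers (52.7% and 5.03%).

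By family in WT livers, of the 8 Ugt2 genes tested 1 rose and 4 fell, of the 6 Ugt1a genes 1 rose and 1 fell, and of the 2 Ugt3 genes 1 fell. Of the 5 Sult1 genes 1 rose, of the 2 Sult2 genes 1 rose and 1 fell, and Sult5a1 fell. In TSP-1 null livers 1 Ugt2 gene rose and 3 fell, 1 Ugt1a gene rose, 1 Ugt3 gene fell, 2 Sult1 genes rose, and in Sult2 1 rose and 1 fell. Called in the same direction in both genotypes were 9 genes: Sult1e1, Ugt1a7c, Sult2a2 and Ugt2b35 were higher, and Ugt2b38, Ugt2b1, Sult2a7, Ugt3a1 and Ugt2a3 were lower. Ugt1a7c and Sult2a2 passed the filter through CDAHFD livers alone, and Sult2a7 through the control livers and 1 CDAHFD liver, so the filter itself favored their direction and these 3 calls add nothing to the counts. Sult1e1 exceeded 0.5 FPKM in all CDAHFD livers but in only 2 NDWT livers and 1 NDKO liver. Ugt2b38 exceeded it in all control livers but in only 1 HFWT liver and 3 HFKO livers. Neither would have passed without the diet in which it was high, so the filter favored their direction too. The same holds for Ugt2b37, called lower in WT only, which exceeded 0.5 FPKM in 5 NDWT livers but in only 1 HFWT liver and 1 HFKO liver. In bulk liver, fewer cells of a type and less RNA per cell cannot be told apart. Markers of other cells were higher on CDAHFD in the same livers: cholangiocyte markers summed to 15.3 to 18.4 FPKM in NDWT and 12.5 to 15.7 in NDKO, against 295 to 493 in HFWT and 184 to 363 in HFKO, with 6 of 6 tested called higher in both genotypes. Most of this sum was Spp1, with means of 13.6, 10.8, 379 and 252 FPKM in NDWT, NDKO, HFWT and HFKO. Krt19 had means of 0.334, 0.393, 6.42 and 4.19 FPKM in the same order. Macrophage markers summed to 186 to 252, 165 to 282, 1182 to 1618 and 737 to 1571 FPKM (5 and 6 of 7 called higher, 1 lower in each), stellate cell markers to 46.4 to 59.4, 59.3 to 65.8, 235 to 458 and 246 to 325 (7 of 7 higher), and T and B cell markers to 1.31 to 3.64, 2.75 to 4.83, 6.74 to 11.3 and 5.82 to 12.5 (6 of 7 higher, scaled 5 in WT and 2 in TSP-1 null livers). Among the markers of these other cells, Krt7, Muc1, Cd8a and Ms4a1 stayed under 0.5 FPKM in every control liver, so the filter favored their direction. Krt19, Cd3d and Trem2 exceeded 0.5 FPKM in fewer than 5 control livers, too few to pass without CDAHFD livers. The filter therefore favored their direction too. Of the 7 hepatocyte markers, 2 were called lower in WT and 4 in TSP-1 null livers (scaled 6 and 5). Their part in the enzyme changes was not tested.

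**Figure D2:**
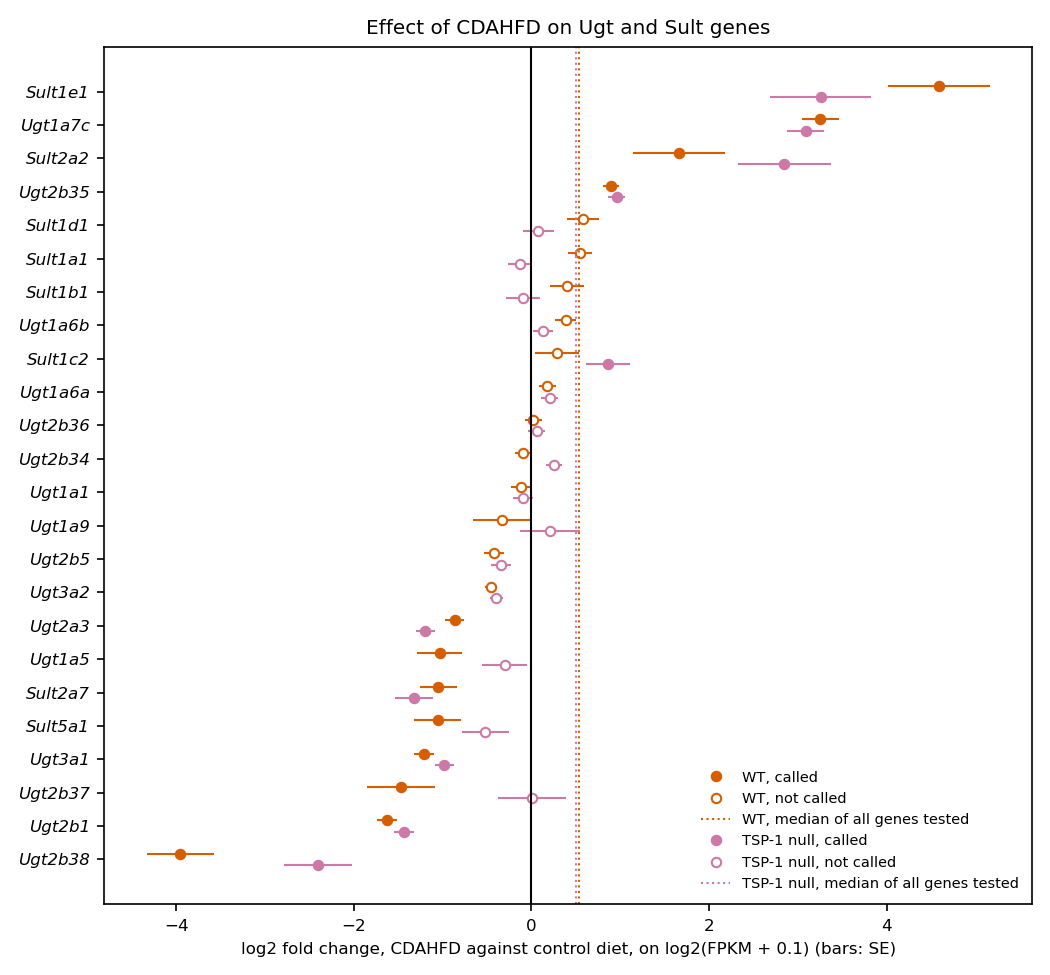
Log2 fold change of CDAHFD against control diet on log2(FPKM + 0.1) for the 24 genes tested, in WT (orange) and TSP-1 null livers (pink), with SE as bars; filled points were called and the dotted lines mark the median of all genes tested (0.53 and 0.50). Sult1e1, Ugt1a7c, Sult2a2 and Ugt2b35 lie to the right in both genotypes, and Ugt2b38 lies farthest to the left, at −3.95 in WT and −2.40 in TSP-1 null livers.

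Among the Ugt2b genes, whose enzymes glucuronidate steroids, bile acids and drugs, Ugt2b38 (chromosome 5, 87409942 to 87424203) fell most. Ugt2b38 was at 5.00, 13.2, 4.52, 5.82 and 5.59 FPKM in the NDWT livers and at 4.05, 1.77, 3.99, 5.13 and 2.90 in NDKO. The HFWT livers had 0.177, 0.196, 0.809, 0.239 and 0.367, and the HFKO livers 0.886, 0.947, 0.676, 0.268 and 0.305. Both CDAHFD groups lay below both control groups with no overlap. The change was 15.5-fold lower in WT (log2FC −3.95, SE 0.38, FDR 2.15e-08, scaled −4.42) and 5.30-fold lower in TSP-1 null livers (log2FC −2.40, SE 0.38, FDR 1.44e-05, scaled −2.89). The difference between the genotypes in this effect was not called (log2FC 1.55, SE 0.54, FDR 0.173). Of the sequences of 31 bases in its transcript, 52.9% also occur in other genes of the set, most of them in Ugt2b5, so fragments of the pair may have been split or dropped by the counting. Ugt2b38 was at 2.28% ± 1.12 of Ugt2b5 in NDWT and 1.47% ± 0.526 in NDKO, against 0.158% ± 0.104 in HFWT and 0.325% ± 0.163 in HFKO.

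Ugt2b1 (chromosome 5, 86916638 to 86926530), one of the most abundant Ugt genes of the control liver, also fell. Ugt2b1 was at 161, 174, 153, 178 and 193 FPKM in the NDWT livers and at 129, 146, 126, 140 and 185 in NDKO. With CDAHFD it was at 57.1, 49.0, 60.7, 58.5 and 52.0 (HFWT) and 59.0, 58.2, 48.4, 61.3 and 41.6 (HFKO). The groups of the 2 diets did not overlap in either genotype. It was 3.09-fold lower in WT (log2FC −1.63, SE 0.11, FDR 2.22e-10, scaled −2.19) and 2.70-fold lower in TSP-1 null livers (log2FC −1.43, SE 0.11, FDR 1.61e-09, scaled −1.97). Only 0.826% of its 31-base sequences occur elsewhere in the set.

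Ugt2a3 (chromosome 5, 87324972 to 87337195), from the Ugt2a branch whose other members are best known from the nose, was lower on CDAHFD in every liver. Ugt2a3 was at 74.9, 84.0, 77.7, 93.0 and 90.9 FPKM in the NDWT livers and at 78.9, 83.6, 88.0, 98.7 and 109 in NDKO. CDAHFD livers read 40.6, 47.8, 46.9, 44.4 and 50.9 (WT) and 41.9, 41.4, 34.8, 49.3 and 33.3 (TSP-1 null). No CDAHFD liver reached the lowest control liver of its genotype. It fell 1.82-fold in WT (log2FC −0.86, SE 0.11, FDR 5.35e-07, scaled −1.43) and 2.29-fold in TSP-1 null livers (log2FC −1.19, SE 0.11, FDR 8.19e-09, scaled −1.73).

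Ugt2b35 (chromosome 5, 87000860 to 87011674), the one gene of the cluster on the plus strand, went the other way. Ugt2b35 was at 35.7, 43.0, 37.9, 40.8 and 38.0 FPKM in the NDWT livers and at 29.7, 31.6, 28.0, 31.7 and 37.8 in NDKO. On CDAHFD the values were 75.8, 70.5, 79.8, 63.3 and 74.9 in WT livers and 66.0, 68.0, 57.3, 67.6 and 50.7 in TSP-1 null livers. Every CDAHFD liver was above every control liver. It was 1.86-fold higher in WT (log2FC 0.90, SE 0.09, FDR 5.08e-08) and 1.94-fold higher in TSP-1 null livers (log2FC 0.96, SE 0.09, FDR 2.36e-08). After median of ratios scaling it stayed higher but was no longer called (0.34, FDR 8.43e-03, and 0.42, FDR 1.5e-03), since the change fell under the fold threshold. Its ratio to Ugt2b36, its neighbor in the cluster, was 24.6% ± 1.48 in NDWT and 22.7% ± 1.26 in NDKO, against 45.1% ± 1.56 in HFWT and 42.5% ± 2.07 in HFKO. The ranges on the 2 diets (21.3% to 26.1% and 39.3% to 47.7%) did not overlap.

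Ugt2b5 (chromosome 5, 87124956 to 87140340) had the highest level of all 38 genes. Ugt2b5 was at 266, 309.6, 261, 356 and 295 FPKM in the NDWT livers and at 219, 246, 242, 258 and 253 in NDKO. The HFWT livers had 216, 234, 244, 199 and 215, and the HFKO livers 195, 199, 173, 255 and 150.3. The WT groups did not overlap, and the TSP-1 null groups did. Its difference passed the FDR but not the fold threshold in WT (log2FC −0.42, SE 0.11, FDR 0.00222) and TSP-1 null livers (log2FC −0.34, SE 0.11, FDR 0.00995), and after scaling it was called lower in both (−0.98 and −0.88). Ugt2b36, next to it, was at 145 to 171 FPKM in NDWT and 124 to 163 in NDKO, against 144 to 176 in HFWT and 113 to 172 in HFKO. Its groups overlapped, with a log2FC of 0.02 in WT livers and 0.06 in TSP-1 null livers, which turns negative after scaling (−0.54 and −0.48). Ugt2b5, Ugt2b37 and Ugt2b38, whose upstream windows are 87.6% to 94.9% identical, therefore had diet log2FC of −0.42, −1.47 and −3.95 in WT livers and −0.34, 0.01 and −2.40 in TSP-1 null livers, with SE of 0.11, 0.38 and 0.38 in each.

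The Ugt3 enzymes use sugars other than glucuronic acid as donors. Both genes lie side by side on chromosome 15, and Ugt3a1 (9273319 to 9315032) fell. Ugt3a1 was at 26.8, 23.0, 28.4, 28.5 and 32.3 FPKM in the NDWT livers and at 20.4, 26.6, 26.4, 21.6 and 24.6 in NDKO. With CDAHFD it was at 10.5, 13.1, 11.9, 10.8 and 13.6 (HFWT) and 13.1, 14.4, 11.2, 9.76 and 12.1 (HFKO). The diets did not overlap in either genotype. It was 2.31-fold lower in WT (log2FC −1.21, SE 0.11, FDR 1.10e-08, scaled −1.77) and 1.97-fold lower in TSP-1 null livers (log2FC −0.98, SE 0.11, FDR 2.07e-07, scaled −1.51).

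Ugt3a2 was at 100.1, 108, 109.8, 113 and 127 FPKM in the NDWT livers and at 101, 102, 105, 102 and 113 in NDKO. CDAHFD livers read 76.2, 78.6, 87.2, 77.9 and 85.9 (WT) and 87.5, 85.9, 76.1, 78.5 and 70.2 (TSP-1 null). Its diets did not overlap either, but the difference was under the fold threshold in WT (log2FC −0.46, SE 0.07, FDR 8.90e-06) and TSP-1 null livers (log2FC −0.40, SE 0.07, FDR 5.06e-05). After scaling it was called lower (−1.02 and −0.93). Ugt3a1 was at 24.9% ± 2.11 of Ugt3a2 in NDWT and 22.9% ± 2.59 in NDKO, against 14.7% ± 1.39 in HFWT and 15.2% ± 1.88 in HFKO, so the level of Ugt3a1 went down further than that of Ugt3a2.

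The 9 Ugt1a genes share 4 last exons of 1311 bases (chromosome 1, 88215044 to 88218997), and each gene shares 50.3% to 60.6% of its exon bases with the others, and how fragments in these exons were assigned is not given in the sources used here. If only the bases outside shared exons gave fragments, the true level per length is higher than the FPKM listed: for Ugt1a1, 96.6 ± 11.9 instead of 39.6 ± 4.87 FPKM in NDWT. Of the unshared bases, 998 of 1915 in Ugt1a7c and 1920 of 2142 in Ugt1a6a lie after the start of the shared exons. A fragment there does not show which first exon was used. The comparison of 1 gene between groups does not depend on the length used.

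Ugt1a1 (88211959 to 88218997), the bilirubin glucuronosyltransferase, had the highest level of the Ugt1a genes. Ugt1a1 was at 37.9, 36.9, 34.9, 47.3 and 41.4 FPKM in the NDWT livers and at 41.0, 39.9, 42.6, 38.3 and 34.3 in NDKO. On CDAHFD the values were 34.9, 45.4, 33.5, 34.1 and 34.6 in WT livers and 39.5, 30.0, 40.8, 44.1 and 30.5 in TSP-1 null livers. All 4 groups overlapped, and no change was called in WT (log2FC −0.12, SE 0.11, FDR 0.344) or TSP-1 null livers (log2FC −0.10, SE 0.11, FDR 0.446). After median of ratios scaling, which lowers every diet effect, Ugt1a1 was called lower in both (scaled −0.68 and −0.63).

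Ugt1a7c (88095062 to 88220002), which glucuronidates phenols, went from near the limit of detection to about 1 FPKM. Ugt1a7c was at 0.0530, 0.0560, 0.0350, 0.0540 and 0.0160 FPKM in the NDWT livers and at 0, 0.0410, 0.0330, 0 and 0.0150 in NDKO. The HFWT livers had 1.59, 1.17, 1.24, 1.12 and 1.22, and the HFKO livers 1.01, 0.929, 1.07, 0.532 and 1.04. Every CDAHFD liver was above every control liver. All 10 CDAHFD livers and 0 of the 10 control livers passed the minimum of 0.5 FPKM, so a gene kept on these grounds had to differ. Control libraries held 0 to 4 fragments and CDAHFD libraries 34 to 92. Gene values do not show how many of these fell in its own first exon. Means were 0.0428 ± 0.0172 FPKM in NDWT and 1.26 ± 0.186 in HFWT (log2FC 3.25, SE 0.20, FDR 6.11e-11, scaled 2.88) and 0.0178 ± 0.0188 in NDKO and 0.915 ± 0.220 in HFKO (log2FC 3.09, SE 0.20, FDR 1.65e-10, scaled 2.84). The effects were not shown to differ (interaction log2FC −0.17, FDR 0.843). It reached 3.52% ± 0.718 of the Ugt1a1 level in HFWT and 2.57% ± 0.843 in HFKO, from 0.109% ± 0.0443 in NDWT and 0.0448% ± 0.0459 in NDKO.

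Ugt1a5 was at 7.61, 6.39, 6.78, 5.34 and 5.96 FPKM in NDWT and 3.59, 3.52, 2.42, 2.89 and 3.05 in HFWT, with no overlap (log2FC −1.03, SE 0.25, FDR 0.00112). In TSP-1 null livers it was at 3.01, 7.83, 2.04, 3.32 and 4.36 on control diet and 3.41, 2.09, 3.15, 4.34 and 2.45 on CDAHFD, which overlapped (log2FC −0.30, SE 0.25, FDR 0.292). With scaling it was called lower in both genotypes (−1.58 and −0.82). The difference between these effects was not called (log2FC 0.73, FDR 0.343). Ugt1a6a and Ugt1a6b, which glucuronidate small phenols and share most of their sequence, were at 4.65 to 7.41 and 8.94 to 16.5 FPKM over all livers. Neither was called in either genotype, with log2FC of 0.18 and 0.38 in WT (FDR 0.0966 and 0.00525) and 0.20 and 0.13 in TSP-1 null livers, all of which turn negative after scaling. Ugt1a9 was at 5.10 to 14.1 FPKM in 19 livers and 30.5 in 1 HFKO liver, and was not called (log2FC −0.33 and 0.21). With scaling it was called lower in WT (−0.88, FDR 0.0328) and not in TSP-1 null livers (−0.32).

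**Figure D3:**
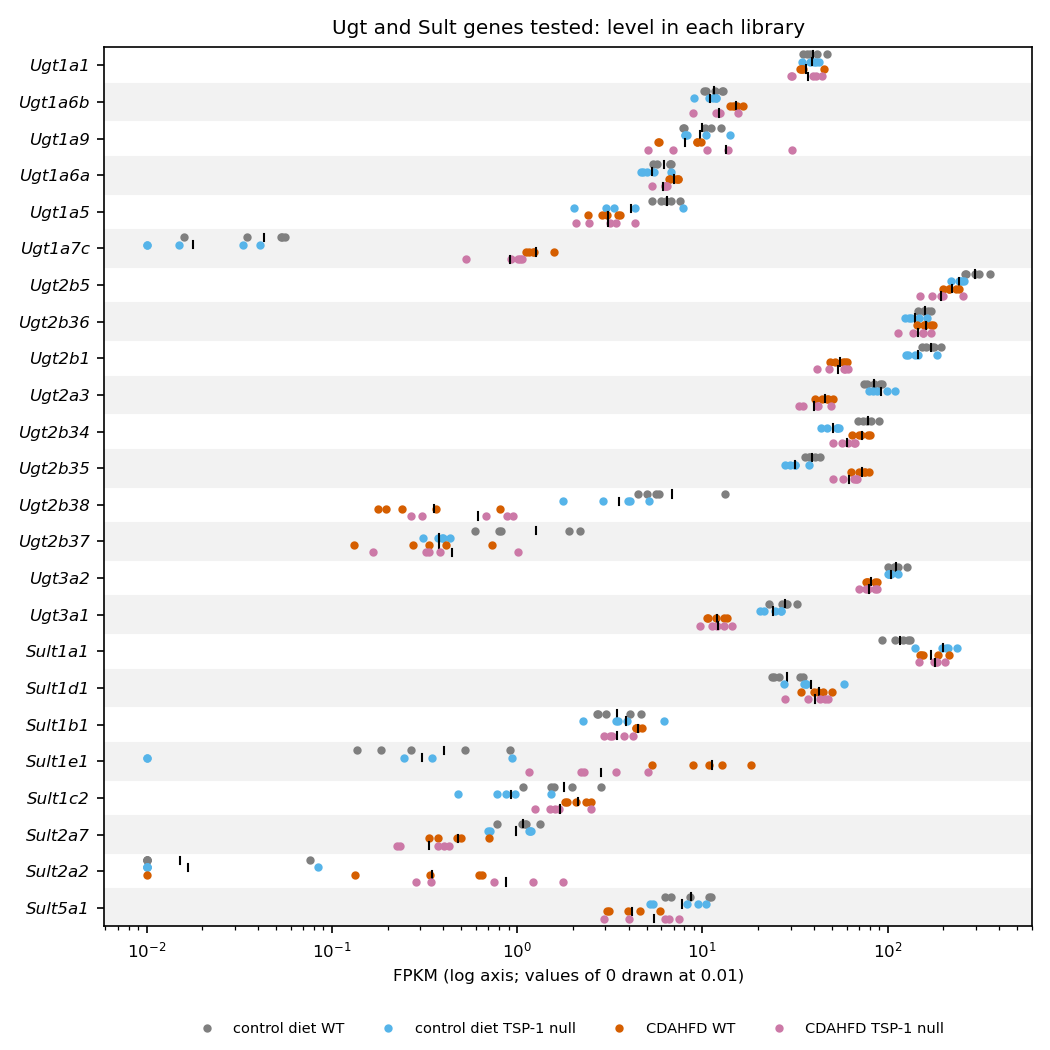
FPKM of the 24 genes tested in each of the 20 livers on a log axis (values of 0 drawn at 0.01), colored by group, with black ticks at group means. Ugt2b5 is highest, between 150 and 356 FPKM, and Ugt1a7c, Sult1e1 and Sult2a2 lie near or under 1 FPKM in every control liver and higher in most CDAHFD livers.

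Among the Sult1 genes, Sult1e1 (chromosome 5, 87575968 to 87591611), the estrogen sulfotransferase, had the highest diet log2FC of the genes tested on the log2(FPKM + 0.1) scale. Sult1e1 was at 0.136, 0.523, 0.268, 0.185 and 0.915 FPKM in the NDWT livers and at 0.346, 0.245, 0, 0 and 0.942 in NDKO. With CDAHFD it was at 18.3, 8.89, 10.9, 12.7 and 5.37 (HFWT) and 2.30, 3.40, 5.12, 1.17 and 2.21 (HFKO). In each genotype every CDAHFD liver was above every control liver. Sult1e1 was 24.1-fold higher in WT (log2FC 4.59, SE 0.57, FDR 6.64e-07, scaled 4.09) and 9.56-fold higher in TSP-1 null livers (log2FC 3.26, SE 0.57, FDR 4.56e-05, scaled 2.89). Means were 0.405 ± 0.322 FPKM in NDWT and 0.307 ± 0.386 in NDKO, against 11.2 ± 4.79 in HFWT and 2.84 ± 1.5 in HFKO. The lowest HFWT liver, at 5.37, was above the highest HFKO liver, at 5.12, but the genotype difference on CDAHFD missed the FDR threshold (log2FC −1.99, SE 0.57, FDR 0.0933). With a pseudocount of 1 it passed (log2FC −1.67, FDR 3.61e-03). The diet by genotype interaction was not called (log2FC −1.33, SE 0.81, FDR 0.466). Sult1e1 amounted to 6.72% ± 3.34 of the Sult1a1 level in HFWT and 1.59% ± 0.800 in HFKO, against 0.350% ± 0.266 in NDWT and 0.144% ± 0.183 in NDKO.

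Sult1a1 (chromosome 7, 126672865 to 126676432), which sulfates phenols, was the most abundant Sult gene and differed between the genotypes on control diet. Sult1a1 was at 109, 93.1, 132, 120.4 and 129.6 FPKM in the NDWT livers and at 236, 196, 140.1, 208 and 211 in NDKO. CDAHFD livers read 155, 186, 214, 151 and 150.1 (WT) and 179, 184, 186, 203 and 148 (TSP-1 null). On control diet the libraries labelled TSP-1 null did not overlap with those labelled WT, and on CDAHFD the genotypes overlapped. On control diet Sult1a1 was 1.68-fold higher in TSP-1 null livers (log2FC 0.75, SE 0.14, FDR 0.00159), where Thbs1 ran against the labels. Its diet effect in WT was under the fold threshold (log2FC 0.55, SE 0.14, FDR 0.00120) and is about 0 after scaling (−0.01), whereas it was called with quantile normalization (0.62, FDR 5.99e-04) and when any 1 of 5 livers was left out (NDWT 3 or 5, or HFWT 1, 4 or 5, with log2FC 0.58 to 0.60). In TSP-1 null livers it was not called (log2FC −0.13, SE 0.14, FDR 0.416), and after scaling it was called lower (−0.66). The interaction missed the threshold (log2FC −0.67, SE 0.19, FDR 0.0906). Without NDKO liver 3, the lowest of its group, it was called (log2FC −0.79, FDR 0.0314).

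Sult1c2 (chromosome 17, 53829637 to 53846339), of a subfamily best known from stomach and kidney, was expressed at a low level. Sult1c2 was at 1.98, 1.07, 2.83, 1.58 and 1.52 FPKM in the NDWT livers and at 0.971, 0.477, 0.869, 0.779 and 1.53 in NDKO. On CDAHFD the values were 1.81, 1.87, 2.35, 2.09 and 2.51 in WT livers and 1.59, 1.25, 1.51, 2.49 and 1.68 in TSP-1 null livers. The groups overlapped in each comparison. It was called higher on CDAHFD in TSP-1 null livers (log2FC 0.86, SE 0.25, FDR 0.00419) but not in WT (log2FC 0.29, SE 0.25, FDR 0.298). After median of ratios scaling it was not called in either (0.37 and −0.24, the latter with its direction turned). The effects were not shown to differ (interaction log2FC 0.57, FDR 0.471). On control diet it was 1.87-fold lower in the libraries labelled TSP-1 null (log2FC −0.90, SE 0.25, FDR 0.0210). That call was lost without NDWT liver 3 (FDR 0.0654), without NDKO liver 2 (FDR 0.0532), when only these groups were fitted (FDR 0.0860), and with a pseudocount of 1 (−0.53, under the fold threshold).

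Sult1d1 and Sult1b1, which lie next to Sult1e1 on chromosome 5, were not called higher. Sult1d1 was at 23.8 to 34.8 FPKM in NDWT and 27.8 to 58.4 in NDKO, against 34.2 to 50.3 in HFWT and 28.0 to 47.5 in HFKO. It was not called on CDAHFD in WT, by a narrow margin in fold (log2FC 0.58, SE 0.18, FDR 0.00605), nor in TSP-1 null livers (log2FC 0.08, SE 0.18, FDR 0.701), and it was not called after scaling (0.02 and −0.46). Sult1b1, which sulfates thyroid hormones, was at 2.72 to 4.67, 2.27 to 6.21, 4.40 to 4.70 and 2.95 to 4.21 FPKM in the same order, and was not called (log2FC 0.40, FDR 0.0650, and −0.09, FDR 0.672). With scaling Sult1b1 was called lower in TSP-1 null livers (−0.61, FDR 0.0109), and its WT effect turned negative (−0.14).

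The Sult2a enzymes sulfate bile acids and hydroxysteroids and are low in male mouse liver. Of the 8 Sult2 genes only Sult2a7 and Sult2a2 passed the filter. Sult2a7 (chromosome 7, 14465159 to 14492926) fell. Sult2a7 was at 1.10, 1.34, 1.06, 0.780 and 1.12 FPKM in the NDWT livers and at 1.19, 1.18, 0.715, 0.697 and 1.16 in NDKO. The HFWT livers had 0.373, 0.473, 0.495, 0.335 and 0.709, and the HFKO livers 0.404, 0.428, 0.372, 0.226 and 0.234. No CDAHFD liver reached the lowest control liver of its genotype. Sult2a7 was 2.07-fold lower in WT (log2FC −1.05, SE 0.21, FDR 1.80e-04, scaled −1.52) and 2.5-fold lower in TSP-1 null livers (log2FC −1.32, SE 0.21, FDR 1.51e-05, scaled −1.77). With a pseudocount of 1 the changes, −0.49 and −0.57, were under the fold threshold. All 10 control livers and 1 CDAHFD liver passed the minimum, so it too was kept through the groups in which it was high.

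Sult2a2 (chromosome 7, 13733506 to 13779637) rose. Sult2a2 was at 0, 0, 0.0760, 0 and 0 FPKM in the NDWT livers and at 0, 0, 0, 0.0840 and 0 in NDKO. With CDAHFD it was at 0, 0.645, 0.133, 0.338 and 0.625 (HFWT) and 1.22, 0.345, 0.750, 1.77 and 0.283 (HFKO). The HFWT livers overlapped with NDWT, and the HFKO livers did not overlap with NDKO. Control libraries held at most 1 fragment, so the means on CDAHFD were set against the floor of 3 fragments. The HFWT mean was 1.61 times that floor (log2FC 1.66 on log2(FPKM + 0.1), SE 0.52, FDR 0.00746, scaled 1.46). HFWT libraries held 0 to 9 fragments, some under the floor, so this is no bound on the change in WT. HFKO libraries held 4 to 26, at least 4.19-fold higher in TSP-1 null livers (log2FC 2.85, SE 0.52, FDR 6.70e-05, scaled 2.62). With a pseudocount of 1 (log2FC 0.38, FDR 0.0513) and with quantile normalization (0.61, FDR 0.384) the WT change was not called. It was kept by 5 CDAHFD livers alone, and 74.5% of its 31-base sequences occur in other Sult2a genes, so its fragments cannot be fully told apart from theirs.

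Sult5a1 (chromosome 8, 123142847 to 123158315), a sulfotransferase of little known substrate, fell in WT livers. Sult5a1 was at 11.1, 10.9, 8.57, 6.77 and 6.25 FPKM in the NDWT livers and at 9.42, 5.44, 8.22, 5.21 and 10.5 in NDKO. CDAHFD livers read 3.13, 3.07, 5.93, 4.63 and 3.97 (WT) and 6.29, 7.47, 4.00, 2.95 and 6.63 (TSP-1 null). The WT groups did not overlap (log2FC −1.06, SE 0.26, FDR 0.00128, scaled −1.61, 2.08-fold lower). The TSP-1 null groups overlapped (log2FC −0.52, SE 0.26, FDR 0.0831), and after scaling that change was called too (−1.05). The effects were not shown to differ (interaction log2FC 0.54, FDR 0.534).

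**Figure D4:**
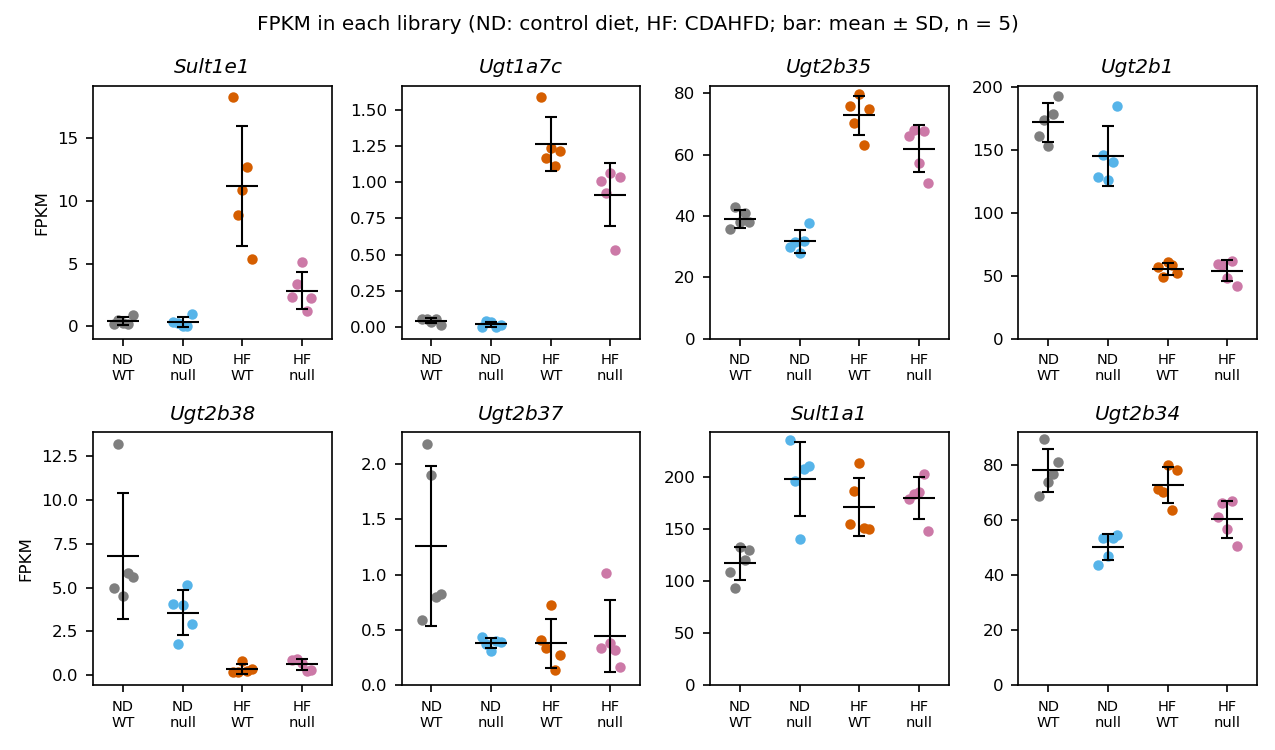
FPKM in each liver for 8 genes, 1 point per liver, with bars at the mean ± SD of 5 livers in each group (ND control diet, HF CDAHFD, null TSP-1 null; each panel has its own linear axis). Sult1e1, Ugt1a7c and Ugt2b35 are higher and Ugt2b1 and Ugt2b38 lower in all CDAHFD livers, and Sult1a1 and Ugt2b34 separate the genotypes on control diet.

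Between genotypes, 4 of the 24 genes were called on control diet, 1 higher and 3 lower in the libraries labelled TSP-1 null, where 4.77% of all genes tested were called (1.74% higher and 3.03% lower). They were Sult1a1 and Sult1c2, described above, and Ugt2b34 and Ugt2b37. Ugt2b37 would not have passed the filter without the NDWT livers, in which it was high, so the filter favored its direction. With scaling 1 of the 24 was called higher and 2 lower (all genes 2.4% and 2.27%), and Ugt2b34 was no longer called. The groups did not overlap for 1 gene that was higher and 3 that were lower (all genes 2.33% and 6.69%). On CDAHFD limma called 0 of the 24, against 0.496% of all genes (0.165% higher and 0.33% lower). Scaling left the count at 0 (all genes 0.262% and 0.186%). The groups did not overlap for 4, all lower in the libraries labelled TSP-1 null (all genes 0.847% higher and 4.13% lower): Sult1e1, Ugt1a7c, Ugt1a6a and Sult1b1. The diet by genotype interaction was called for 0 of the 24, against 0.647% of all genes (0.337% higher and 0.31% lower), also after scaling (0.565% and 0.392%).

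Ugt2b34 (chromosome 5, 86889767 to 86906937), at the end of the cluster, was lower in the libraries labelled TSP-1 null on control diet. Ugt2b34 was at 69.0, 89.7, 74.0, 77.0 and 81.1 FPKM in the NDWT livers and at 43.8, 53.4, 47.0, 53.4 and 54.5 in NDKO. On CDAHFD the values were 71.5, 70.4, 80.1, 63.9 and 78.5 in WT livers and 61.2, 66.2, 56.9, 67.0 and 50.8 in TSP-1 null livers. All 5 NDKO livers were below all 5 NDWT livers, whereas on CDAHFD the genotypes overlapped. On control diet it was 1.55-fold lower (log2FC −0.63, SE 0.09, FDR 2.55e-04). After median of ratios scaling the difference, −0.56 (FDR 2.09e-03), was just under the fold threshold. Its diet effect was not called in WT (log2FC −0.10, SE 0.09, FDR 0.326) or TSP-1 null livers (log2FC 0.26, SE 0.09, FDR 0.0152), and scaling made both negative (−0.66 and −0.28). The interaction was not called (log2FC 0.36, SE 0.13, FDR 0.183).

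Ugt2b37 (chromosome 5, 87240493 to 87254804) was above 0.5 FPKM in all 5 NDWT livers, in 0 NDKO livers and in 1 liver of each CDAHFD group. Ugt2b37 was at 0.590, 2.18, 1.90, 0.800 and 0.820 FPKM in the NDWT livers and at 0.435, 0.372, 0.311, 0.396 and 0.392 in NDKO. The HFWT livers had 0.412, 0.336, 0.729, 0.132 and 0.275, and the HFKO livers 0.335, 1.01, 0.382, 0.321 and 0.166. NDWT did not overlap with NDKO, and it overlapped with HFWT. Ugt2b37 was 2.53-fold lower in the libraries labelled TSP-1 null on control diet (log2FC −1.34, SE 0.38, FDR 0.0261) and 2.77-fold lower on CDAHFD in WT (log2FC −1.47, SE 0.38, FDR 0.00195, scaled −1.92). In TSP-1 null livers the diet effect was 0.01 (FDR 0.985, scaled −0.41), and the interaction was not called (log2FC 1.48, FDR 0.191). The genotype call was lost without NDWT liver 2 (FDR 0.0703), NDWT liver 3 (FDR 0.0779) or NDKO liver 3 (FDR 0.0559), and with quantile normalization (−1.195, FDR 0.0894). Without NDWT, the group in which it was high, the gene would not have passed the filter, so the filter favored both calls. Of its 31-base sequences, 34.4% occur in other genes of the set.

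**Figure D5:**
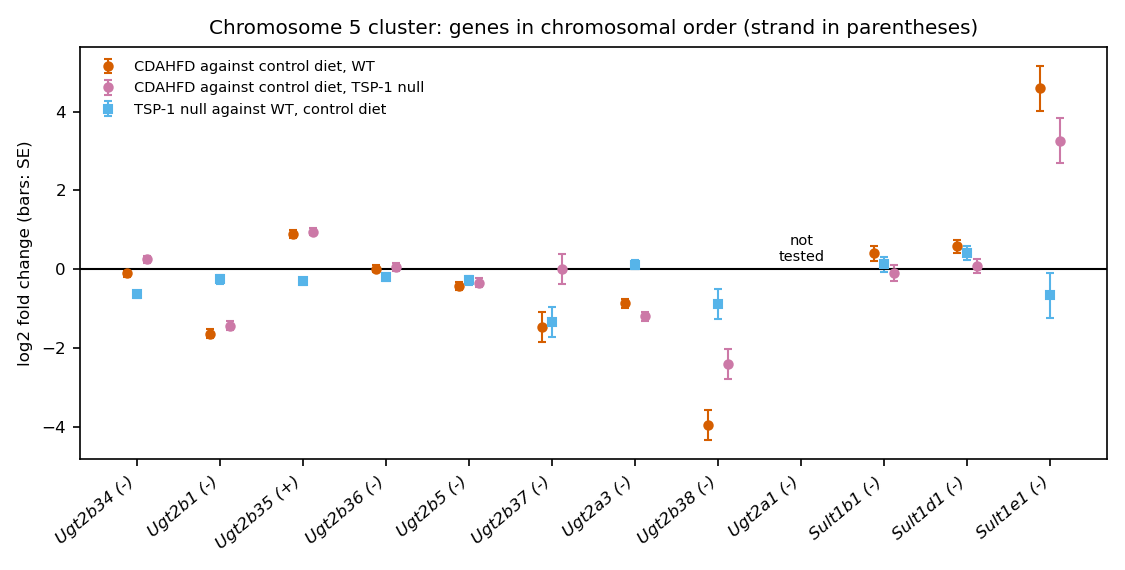
Log2 fold change with SE for the tested genes of the chromosome 5 cluster in chromosomal order (strand in parentheses; Ugt2a1 was not tested): CDAHFD against control diet in WT (orange circles) and TSP-1 null livers (pink circles), and TSP-1 null against WT on control diet (blue squares). Neighbors differ in direction, with Ugt2b1 at −1.63 next to Ugt2b35 at 0.90 in WT livers.

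The remaining 14 genes did not pass the filter and were not tested. Sult1c1, Sult2a6 and Ugt2a1 were listed at 0 in all 20 livers, which at this depth does not show that they are silent, and 94.5% of the exon bases of Ugt2a1 are also covered by other genes. Sult2a3, Sult2a4, Sult2a5, Sult3a1 and Ugt1a8 had at most 4 fragments in any library. Sult2b1, the cholesterol sulfotransferase, was at 0, 0.031, 0.068, 0.119 and 0.159 FPKM in NDWT and at 0.306, 0.372, 0.392, 0.506 and 0.916 in HFWT when sorted by level. In NDKO it had at most 2 fragments and in HFKO 10 to 23, at 0.408 ± 0.0911 FPKM, at least 4.98-fold higher. Sult2a1 had 0 fragments in every control liver, at most 3 in HFWT and 2 to 8 in HFKO. Sult4a1, known from brain, had 0 to 3 fragments in control and 2 to 13 in CDAHFD livers, and Sult6b1 had 0 to 3 and 1 to 8. Ugt1a10 was at 0.196 ± 0.0770 FPKM in NDWT and 0.196 ± 0.103 in NDKO, against 0.0568 ± 0.0429 in HFWT and 0.0390 ± 0.0267 in HFKO, and Ugt1a2 had at most 10 fragments.

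The enzymes need activated donors, and genes of donor supply were followed in lists. Of 8 genes that make or use UDP-glucuronic acid, 4 rose on CDAHFD in WT and 6 in TSP-1 null livers, and none fell (median log2FC 0.54 and 0.86, against 0.53 and 0.50 for all genes). Of all genes tested, 44.1% rose and 4.62% fell in WT and 41.9% rose and 4% fell in TSP-1 null livers, and the lists of donor supply, transporters, factors and their targets are to be read against these shares. Ugdh, which oxidizes UDP-glucose to UDP-glucuronic acid, was at 13.0 ± 1.38 FPKM in NDWT and 11.3 ± 1.23 in NDKO, against 34.0 ± 3.98 in HFWT and 27.6 ± 4.60 in HFKO (log2FC 1.39 and 1.27, FDR 1.62e-09 and 6.50e-09). Gusb, the lysosomal enzyme that removes glucuronic acid, rose by a log2FC of 1.54 and 1.36, Pgm1 by 1.83 and 1.77, and Uxs1, which turns UDP-glucuronic acid into UDP-xylose, by 0.67 and 0.87. Pgm2 was far more abundant, at 81.7 ± 3.49 FPKM in NDWT against 1.57 ± 0.142 for Pgm1. It was lower on CDAHFD, under the fold threshold (log2FC −0.44, FDR 5.50e-06 in WT, and −0.32, FDR 2.55e-04 in TSP-1 null livers). Of 8 genes of PAPS supply and sulfate transport, 4 rose in WT and 2 in TSP-1 null livers and none fell (median 0.51 and 0.40), shares near and under those of all genes. Papss1, a PAPS synthase, was at 3.29 ± 0.799, 2.03 ± 0.249, 8.28 ± 1.59 and 7.42 ± 0.430 FPKM in NDWT, NDKO, HFWT and HFKO (log2FC 1.32 and 1.82), and Slc26a2, a sulfate transporter, rose by 1.28 and 1.48. Slc26a2 exceeded 0.5 FPKM in no NDKO liver and not in every NDWT liver, so the filter favored its direction. Slc35b3 and Slc35b2, which carry PAPS into the Golgi, were called in WT (0.84 and 0.62). In TSP-1 null livers they passed the FDR but not the fold threshold (0.42 and 0.41), and the interaction was not called (FDR 0.147 and 0.467). After median of ratios scaling 3 genes rose and 1 fell in the first list and 2 rose and 1 fell in the second, in both genotypes.

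Conjugates leave the hepatocyte through transporters. Of 9 export and uptake genes, 3 rose and 2 fell in WT, and 3 rose and 1 fell in TSP-1 null livers, where 44.1% and 41.9% of all genes rose (scaled 3 and 4, and 2 and 4). Abcc1 and Abcc4, which export conjugates across the basolateral membrane, rose by a log2FC of 2.76 and 1.81 in WT livers and 2.41 and 2.19 in TSP-1 null livers. Both were low, with means of 0.302 and 0.608 FPKM in NDWT and 2.63 and 2.39 in HFWT. Abcc1 passed the filter through CDAHFD livers alone. Abcc4 exceeded 0.5 FPKM in no NDKO liver and not in every NDWT liver, so it would not have passed without CDAHFD livers. The filter favored the direction of both. Abcc2 (97.7 FPKM in NDWT, 109 in HFWT) was not called (log2FC 0.16 and 0.34). Abcc3 (46.5 and 69.0 FPKM) was under the fold threshold in WT (0.57) and was called higher in TSP-1 null livers (0.87). Slco1a1, an uptake transporter of sulfated steroids, went from 78.5 ± 9.97 FPKM in NDWT to 10.2 ± 3.00 in HFWT and from 52.5 ± 9.11 in NDKO to 8.94 ± 4.43 in HFKO (log2FC −2.98 and −2.70, FDR 3.55e-08 and 1.54e-07). Abcg2, a canalicular exporter, fell in WT (−0.63) and was not called in TSP-1 null livers (−0.30).

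Of 14 receptors and factors known to control these enzymes, 2 rose and 1 fell in WT, and 2 rose and 2 fell in TSP-1 null livers (scaled 1 and 8, and 0 and 7). Ahr rose by a log2FC of 1.39 and 0.71, Nfe2l2, the gene of NRF2, by 0.79 and 1.04, and Ppara fell (−1.22 in WT and −0.65 in TSP-1 null livers). Other targets of the same factors were counted alongside. Of 4 aryl hydrocarbon receptor targets tested, 4 rose in both genotypes (scaled 2 in each; Cyp1b1 by 2.74 and 2.83), and so did 4 of 4 targets of the receptors CAR and PXR (scaled 4 and 3; Abcb1a by 3.44 and 3.45, Cyp3a11 by 1.83 and 1.73). Of these, Cyp1a1, Cyp1b1, Cyp2c55 and Abcb1a stayed under 0.5 FPKM in every control liver. They passed the filter through CDAHFD livers alone, so the filter itself favored their direction. Cyp2b10, also on the CAR and PXR list, reached at most 0.026 FPKM in any liver and was not tested. Of 10 NRF2 targets, 8 rose in WT and 9 in TSP-1 null livers (scaled 7 in each; Gsta1 by 6.72 and 6.20, Nqo1 by 3.10 and 2.44). Slc7a11, on the NRF2 list, also passed the filter through CDAHFD livers alone. Gsta1 exceeded 0.5 FPKM in no NDKO liver and not in every NDWT liver, so it would not have passed without CDAHFD livers. The filter favored the direction of both. Of 8 PPARα targets, 6 fell in WT and 5 in TSP-1 null livers (scaled 7 in each; Acot1 with a log2FC of −4.22 and −2.78), and none rose. These lists share the livers with the enzymes, and no relation between them was tested.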

How the data were processed

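Liver poly(A) RNA of 20 mice was sequenced as paired reads from a directional kit. The submitters' processing notes name STAR 2.5.2 and featureCounts of Subread 1.5.1, and they give GRCh38 as the build although the coordinates in the table are those of GRCm38 (99.8% of 37607 gene identifiers overlapped their gene in GENCODE M21). The authors deposited FPKM per gene, with no further normalization between libraries, for 38924 genes; whether counting used strand is not given in the sources used here. Fragments per gene were recovered as the product of FPKM, length and depth: at least 99.98% of values in any library were whole (tolerance 0.02 fragments beyond rounding), with a median depth of 18950482.5. No libraries were copies (lowest chi-square per degree of freedom 13.0 over 40 pairs).

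All 20 libraries entered 1 limma fit (version 3.58.1, under R 4.3.3, with trended eBayes) on log2(FPKM + 0.1) for genes above 0.5 FPKM in at least 5 libraries, with Benjamini-Hochberg adjustment over the whole table and an absolute log2FC threshold of 0.58. The labels follow mice, so p-values measure the spread between mice. The fit was checked on simulated data. Fully described genes were those called between genotypes, up to 6 with the largest mean diet effect in each direction, and the highest of Ugt1a, Ugt2b, Ugt3a, Sult1 and Sult2; Ugt1a5, Ugt2b36 and the untested genes were picked for added values after these were seen. From other lists at most 4 genes with the lowest FDR were named at first. Further genes were named afterward for their level, their direction or the filter. Genes and lists were chosen with earlier results of these data known. Shared exons came from GENCODE M21, and promoters and identities from RefSeq GRCm38.p6. Python 3.11.15 with numpy 2.4.6, pandas 2.3.3 and matplotlib 3.10.9 gave the sums, ratios and figures. Alternatives were pseudocounts of 0.01 and 1, other filters, median of ratios and quantile scaling, eBayes robust or without trend, a fit of the compared groups alone, no fold threshold, leaving out single mice, and blocking on replicate number.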

Additional observations from a re-analysis of the deposited data

Results flagged for a closer look

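For the 24 genes tested, single livers standing far from the rest of their group of 5 (a gap to the nearest liver above 0.71 of the group's range) were found in 10 of 96 gene and group combinations. Chance gives about 1 in 20 for values with a normal distribution, which FPKM need not follow. A group with only 1 value above 0, as for Sult2a2, is flagged by construction. The count can therefore not be read against that rate. Ugt2b38 was at 13.2 FPKM in NDWT liver 2, with the next at 5.82. Ugt2b37 was at 1.01 in HFKO liver 2, with the next at 0.382. Ugt1a7c was at 1.59 in HFWT liver 1 and, lower than its group, at 0.532 in HFKO liver 4. Ugt1a1 was at 45.4 in HFWT liver 2, and Ugt1a6a was at 5.35 in HFKO liver 5, below the rest. Sult1d1 was at 58.4 in NDKO liver 5, with the next at 36.1, and Sult1b1 was at 4.70 in HFWT liver 5. Sult2a2 was at 0.076 in NDWT liver 3 and 0.084 in NDKO liver 4, with 0 in the others of these groups.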

How the results depend on the processing

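The number of genes called stayed within 1.5 times the main count except as follows. On CDAHFD the genotype comparison called 1 gene, Sult1e1, with a pseudocount of 1, instead of 0. Without a filter on low values the diet called 16 genes in TSP-1 null livers (10 higher, 6 lower) instead of 10. With quantile normalization the genotype comparison on control diet called 2 genes instead of 4. Leaving out 1 mouse at a time gave 12 to 14 genes for the diet in WT, 10 to 11 for the diet in TSP-1 null livers, 2 to 5 for the genotype on control diet (2 without NDWT liver 3), 0 to 0 for the genotype on CDAHFD and 0 to 1 for the interaction. Family sums moved most with median of ratios scaling: the Ugt sum of CDAHFD less control livers was −602.8 FPKM in WT and −499.1 in TSP-1 null livers, and the Sult sum was −0.531 in WT, where its direction turned, and −108.1 in TSP-1 null livers. With 1 mouse left out these differences ranged from −278 to −232, −215 to −146, 63.4 to 82.3 and −32.5 to −3.61 FPKM. Among the genes described in full, quantile normalization turned 3 single effects that were called before or after it: Sult1c2 to −0.59 in WT and −0.025 in TSP-1 null livers, and Ugt2b37 to −1.24 in TSP-1 null livers. The cause of these changes was not tested.

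Replicate numbers only name the mice: deviations of same-numbered livers correlated from −0.133 to 0.0807 over 20 pairs. With a replicate block the counts were 12, 10, 4, 0 and 0 for the diet in WT and TSP-1 null livers, the genotype on control diet and CDAHFD, and the interaction. A fit of only the groups compared was not run for the interaction, which needs all 4. Depth limits the genes under about 0.5 FPKM, among them all 14 not tested.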

Other observations

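Sulfotransferases of the Golgi, which sulfate proteoglycans and proteins and lie outside the cytosolic families described above, were read in the same livers. Of 17 tested, 8 rose on CDAHFD in WT and 9 in TSP-1 null livers, near the share of all genes tested (44.1% and 41.9%), and none fell (median log2FC 0.49 and 0.60, against 0.53 and 0.50 for all genes; after median of ratios scaling 7 rose and 2 fell in WT, with 6 and 0 in TSP-1 null livers). Chst11, a chondroitin sulfotransferase, went from 0.0486 ± 0.0280 FPKM in NDWT to 1.66 ± 0.252 in HFWT and from 0.0602 ± 0.0286 in NDKO to 1.53 ± 0.383 in HFKO (log2FC 3.58 and 3.33, FDR 2.16e-11 and 7.62e-11). Chst11, Hs3st1 and Ust stayed under 0.5 FPKM in every control liver and passed the filter through CDAHFD livers alone. The filter itself therefore favored their direction. Chst14 and Chst15, which sulfate dermatan and chondroitin chains, rose by 1.77 and 1.24 in WT livers and 1.94 and 1.06 in TSP-1 null livers, and Chst12 rose by 2.05 and 2.21.

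Liver genes known to be higher in male mice were lower on CDAHFD: 7 of 8 fell in WT and 8 of 8 in TSP-1 null livers, where 4.62% and 4% of all genes fell (median log2FC −2.47 and −2.72). Elovl3 went from 198 ± 52.5 FPKM in NDWT to 13.4 ± 8.69 in HFWT and from 141 ± 50.2 in NDKO to 6.17 ± 1.58 in HFKO, and Cyp4a12b was also lower in the libraries labelled TSP-1 null than in those labelled WT on CDAHFD (log2FC −1.25, FDR 4.73e-04) and on control diet (log2FC −0.68, FDR 0.0132). Of 5 female-biased genes tested, 2 rose in both genotypes, Cyp2a4 by a log2FC of 5.24 and 5.84 and Cyp2b9 by 4.49 and 5.67, while 2 fell in WT and 3 in TSP-1 null livers, among them Cyp17a1 (−2.60 and −2.71). Markers of pancreatic acinar cells summed to 6.42 to 15.7 FPKM over all livers, nearly all from Cela1, with Amy2b and Pnlip at 0. Intestinal markers summed to 68.0 to 163 FPKM, with Sis at 0, and 1 of 3 tested, Vil1, rose in both genotypes (log2FC 3.14 and 2.91) while Fabp2 fell in WT (−0.82) and was not called in TSP-1 null livers (−0.52). Cyp2a4, Cyp2b9 and Vil1 stayed under 0.5 FPKM in every control liver and passed the filter through CDAHFD livers alone. The filter itself therefore favored their direction.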
